A study of Mus musculus with 30 samples.

Results

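5-Hydroxymethylcytosine (5hmC) regions of Tdg fl/fl embryoid bodies (EB) were compared with those of Tdg fl/fl embryonic stem (ES) cells. Both groups were mouse cells of the strain C57BL/6-ICR with floxed alleles of Tdg, which encodes thymine DNA glycosylase. EB are aggregates that ES cells form in suspension. Here the medium lacked LIF, CHIR99021 and PD0325901, the additives that hold ES cells in self-renewal, and EB were collected after 5 days. The ES cell medium, given in the labels of the EB libraries, contained all 3 additives on gelatin without feeder cells. A set of Tdg -/- ES cells, in which the gene was deleted, served as a second list of ES cells. The floxed alleles were shared by EB and fl/fl ES cells, so Tdg genotype did not separate them.

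The comparison rests on 4 of the 30 libraries of the series, 2 of EB and 2 of fl/fl ES cells. Fragments that carry 5hmC were labelled chemically, enriched, amplified for 18 PCR cycles and sequenced. The authors deposited 1 list of enriched regions for each group, covering its 2 libraries together, so no value has a spread between replicates and none was tested. Every difference below describes these lists, and 95% Wilson intervals cover counting error only. The lists give no read numbers, so depth is unknown, and a shallower EB library and less 5hmC in EB cannot be told apart. No EB expression file was analysed here, so the EB label was not checked on marker genes, and the share of undifferentiated cells in EB is unknown.

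TET enzymes oxidise 5-methylcytosine to 5hmC and further to 5-formylcytosine (5fC) and 5-carboxylcytosine. Thymine DNA glycosylase removes these last forms, and base excision repair puts back an unmodified cytosine. In ES cells 5hmC is known from gene bodies, promoters of intermediate CpG content and distal enhancers, and its pattern is known to change as cells leave pluripotency. A region here is a stretch where enriched reads passed the authors' peak caller, so a region has a width and a score but no 5hmC level per cytosine. The mm9 gene annotation and sequence were not used here, so regions are given by position without gene names.

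EB had fewer 5hmC regions, and those they had were farther apart. The EB list held 101593 regions over 126 Mb, against 140943 regions over 167 Mb in fl/fl ES cells and 174655 regions over 229 Mb in Tdg -/- ES cells. The median gap between neighbouring regions was 6232 bp in EB, against 3172 bp in fl/fl ES cells. The median region was slightly wider in EB, at 1056 bp, against 979 bp in fl/fl ES cells. Regions shared 73.0 Mb, which was 57.7% of the EB bases and 43.6% of the ES bases.

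A region with at least 1 bp in a region of the other list was called kept. An EB region without such an overlap was called gained, and an ES region without one was called lost. By this rule 36756 EB regions were gained, or 36.2% of the list (35.9 to 36.5), and 73895 ES regions were lost, or 52.4% (52.2 to 52.7). The lists differ in size, and against only the 101593 highest-scoring ES regions 47.5% of EB regions were gained and 46.6% of ES regions lost. With lists of equal size and mostly one-to-one overlaps, such shares are close by construction. Their closeness is therefore no result about gain and loss. Gained regions were narrow, with a median of 905 bp against 1176 bp for the EB regions kept from ES cells. Lost regions had a median of 918 bp against 1041 bp for the ES regions kept in EB. Many changed regions lay near a region of the other list. A gained region stood a median of 3035 bp from the nearest ES region and a lost region 3069 bp from the nearest EB region. Of gained regions 25.2% and of lost regions 23.1% lay within 1 kb of the other list, while 6.35% of gained and 1.67% of lost regions lay 50 kb or more away.

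The score of a region (-10 log10 of the peak caller's p-value) ranks regions within a list. Gain was mostly a matter of low-scoring regions: with the EB list ordered by score into 10 equal parts, 54.6% of the lowest part and 10.7% of the highest part were gained. Loss reached into the strong regions as well. Of the lowest part of the ES list 71.0% were lost, and of the highest part still 4936 of 14095 (35.0%, 34.2 to 35.8). The list of Tdg -/- ES cells gives a measure of how often a strong ES region is missing from another list of ES cells. Overall 12.7% of the fl/fl ES regions were absent from it, 37.7% in the lowest part and 1 of 14095 regions in the highest. That list is larger than the EB list, and its genotype differs, so the comparison is not between equals.

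Width separated loss from gain. The wider an EB region, the more rarely it was gained, down to 8 of 221 EB regions of 5 kb or more (3.62%, 1.85 to 6.98). A wider region has more room to share 1 bp with the other list, so a fall with width is partly built in. In ES cells the share lost fell with width only up to a point and then climbed. It was 70.5% for ES regions under 600 bp and 44.7% for those from 1000 to 1500 bp, but 55.2% for those from 3000 to 5000 bp and 61.3% (56.5 to 65.8) for the 421 regions of 5 kb or more, of which 258 were lost. None of these 421 regions was absent from the Tdg -/- list, a count of 0 that allows a share of up to 0.713%. The broad lost regions were not weak ones: their median score was 1047, against 1024 for the broad kept regions. Within the 25% of ES regions with the highest scores, 42.8% of the widest of 4 width classes were lost, against 24.5% to 26.1% in the 3 narrower classes.

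**Figure D1:**
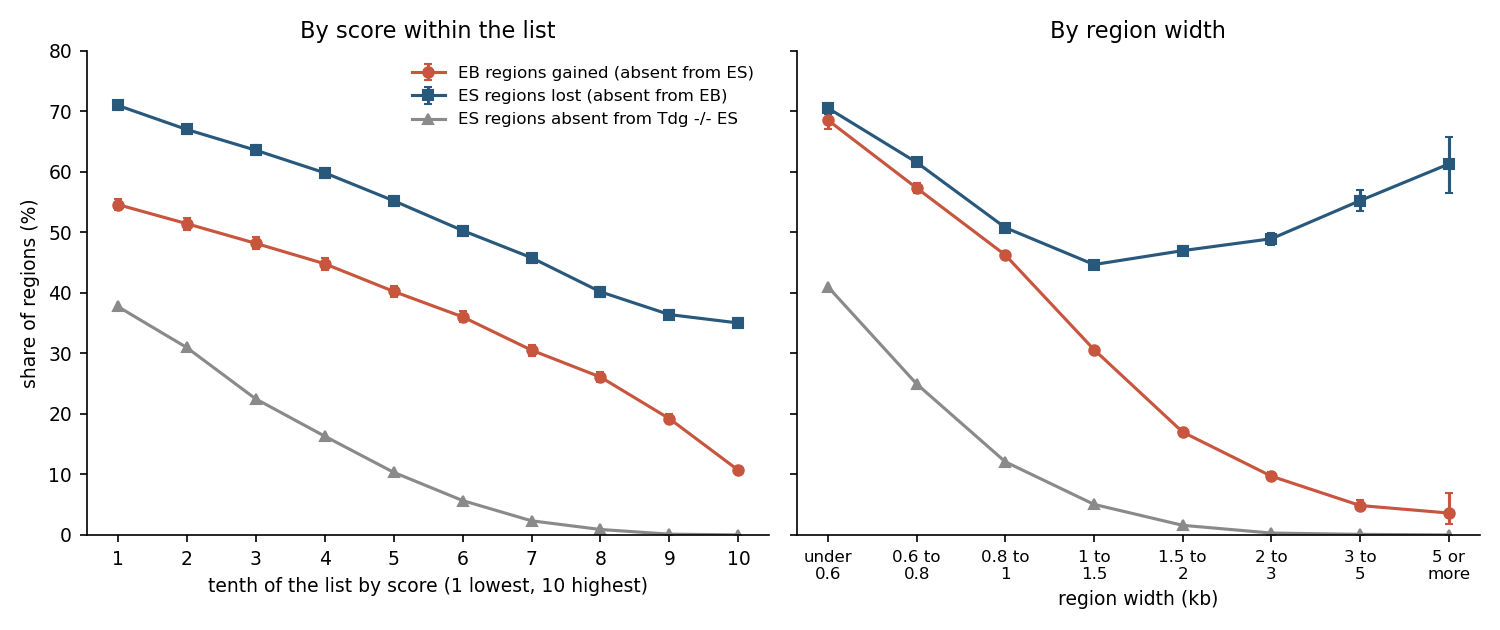
Share of regions gained (EB list, circles) or lost (ES list, squares), and share of ES regions absent from the Tdg -/- ES list (triangles), in 10 equal parts of each list by score (left) and by region width in kb (right). Bars are 95% Wilson intervals; loss stays at 35.0% in the highest scores and is 61.3% in ES regions of 5 kb or more, where gain is 3.62%.

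Broad ES regions that were kept were often covered only in part. The 163 kept ES regions of 5 kb or more had a median of 52.1% of their bases under EB regions, and 46 of them (28.2%) held at least 2 separate EB regions. Kept ES regions under 600 bp had a median cover of 100%, and 0.169% held at least 2 EB regions. A long region can hold more than 1 region of the other list by its length alone, so the second of these values grows with width in any comparison.

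Of the lost regions, the 5 with the highest scores spanned 3714 to 9198 bp. The highest, 125093399 to 125097113 on chromosome 8 (mm9, as for all positions here), scored 3110. It was followed by 95537832 to 95544972 on chromosome 3 (score 1956), 82013460 to 82018053 on chromosome 15 (1949), and a pair on chromosome 4 at 151749654 to 151754683 (1926) and 151862108 to 151871306 (1922). All 5 overlapped 5hmC regions of Tdg -/- ES cells and 5fC regions of fl/fl ES cells, and none overlapped an ES region of p300, a histone acetyltransferase of active enhancers. By definition the EB 5hmC list had no region at any of the 5, but the EB 5fC list had a region at 4 of them, all but that on chromosome 15. 5fC is formed from 5hmC, so a region called lost is not shown to be free of 5hmC.

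The 5 gained regions with the highest scores were shorter, from 1218 to 3364 bp. The highest lay at 91030263 to 91031925 on chromosome 7 (score 1672). It overlapped an ES p300 region, and none of the Tdg -/- 5hmC, ES 5fC or EB 5fC lists had a region there. The other 4 lay at 166430031 to 166433395 on chromosome X (1506), 120732547 to 120735002 on chromosome 1 (1449), 69010003 to 69011615 on chromosome 11 (1290) and 30787641 to 30788859 on chromosome 12 (1112). These 4 overlapped both Tdg -/- ES 5hmC and EB 5fC, and only the X region also overlapped fl/fl ES 5fC. No list of problem regions of the genome was applied to the named positions.

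Shared regions were more often wider than narrower in EB. Overlapping regions formed 63361 groups, and in 58936 of them 1 EB region met 1 ES region. In these one-to-one pairs the median width was 1153 bp in EB and 1031 bp in ES cells, and the median ratio was 1.10 (log2 ratio 0.13). The EB region was wider in 67.5% of pairs and narrower in 32.3% (31.9 to 32.7). Large changes of width were uncommon: the EB region was at least 2-fold wider in 2562 pairs (4.35%) and at least 2-fold narrower in 1149 (1.95%). Centres of the pairs stood a median of 76.5 bp apart, and the EB region enclosed the ES region in 43.5% of pairs and lay inside it in 13.7%. In 2990 groups 1 EB region joined 2 or more ES regions, while in 948 groups 1 ES region held 2 or more EB regions.

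The difference of width was not seen against the other list of ES cells. Over the 51990 regions that could be paired in all 3 lists, the median width was 1161 bp in EB, 1173 bp in Tdg -/- ES cells and 1033 bp in fl/fl ES cells. The median log2 ratio was 0.14 for EB over fl/fl ES cells, 0.13 for Tdg -/- over fl/fl ES cells and 0.00 for EB over Tdg -/- ES cells. The first and second of these ratios share the fl/fl ES list. The order also depended on which list sorted the pairs. Sorted by ES width, the median log2 ratio was 0.46 in the narrowest of 10 equal parts and -0.05 in the widest. Sorted by EB width, it was -0.13 in the narrowest part and 0.30 in the widest. Sorted by the mean width of the pair, which favours neither list, it lay between 0.08 and 0.16 in all 10 parts. The median log2 ratio was between 0.11 and 0.16 on each of the 19 autosomes and 0.33 on chromosome X, which had 244 pairs.

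**Figure D2:**
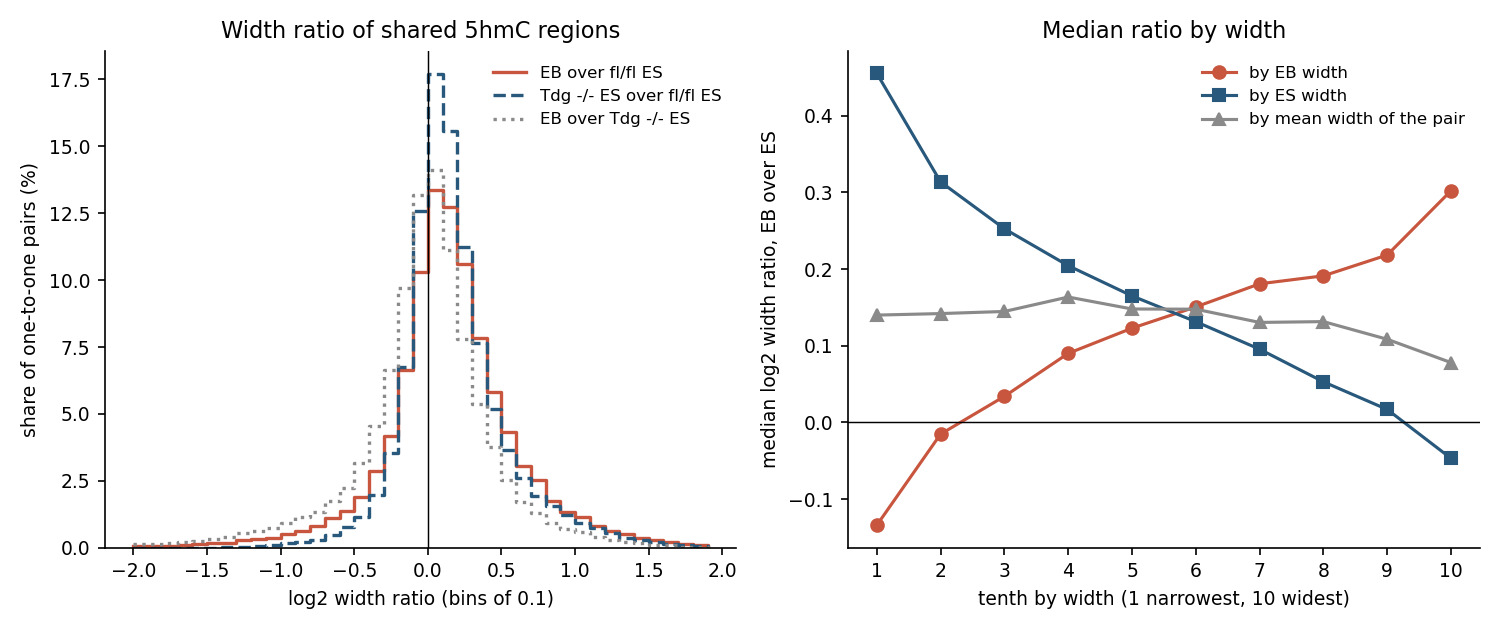
Left, share of one-to-one pairs by log2 width ratio for EB over fl/fl ES cells, Tdg -/- over fl/fl ES cells and EB over Tdg -/- ES cells, with medians of 0.13, 0.12 and 0.01. Right, median log2 ratio of EB over fl/fl ES width in 10 equal parts of the pairs' regions sorted by EB width, by ES width or by their mean, where the slopes of the first and second run in opposite directions and the last lies between 0.08 and 0.16.

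Among 24121 pairs in which both regions scored at or above the median of their list, the strongest narrowing was on chromosome 7, where an EB region of 843 bp (31366471 to 31367314) met an ES region of 6787 bp (31365671 to 31372458). On chromosome 2 an EB region of 1188 bp from 165902158 met an ES region of 7787 bp, on chromosome 4 an EB region of 921 bp from 141715802 met one of 5792 bp, and on chromosome 5 an EB region of 1357 bp from 113622212 met one of 8510 bp. On chromosome 15, at 82031062, the EB region of 1175 bp shared only its end with an ES region of 7047 bp. In all 5 the ES region was broad, and in the pairs on chromosomes 2, 4, 7 and 15 the EB region lay within 1 kb of an edge of it.

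The strongest widening was on chromosome 5, where an EB region of 3227 bp (68232621 to 68235848) met an ES region of 681 bp. On chromosome 6 an EB region of 6541 bp from 6827602 met an ES region of 1384 bp, and another of 4363 bp from 83388734 met one of 1108 bp. An EB region of 4377 bp from 81065049 on chromosome 15 met an ES region of 1000 bp, and an EB region of 3589 bp from 48569419 on chromosome 17 met one of 898 bp. The 5 kept pairs with the highest EB scores were all slightly wider in EB, around the median ratio of 1.10 over all one-to-one pairs. They lay on chromosome 8 at 124276202 (score 3044 in EB) and 122392927 (2309), on chromosome 7 at 35987083 (2368), on chromosome 5 at 30922807 (2309) and on chromosome 17 at 56705083 (2187), and their EB over ES width ratios were 1.05 to 1.16.

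Changed regions tended to neighbour each other. After a gained EB region the next EB region was gained in 43.2% of cases (42.7 to 43.7), and after a kept one in 32.2% (31.9 to 32.6). After a lost ES region the next ES region was lost in 57.1% (56.8 to 57.5), and after a kept one in 47.3% (46.9 to 47.6). The gap was widest between close neighbours. With less than 500 bp between them, the next region was gained in 46.2% after a gained and 26.3% after a kept EB region, and lost in 68.9% after a lost and 36.4% after a kept ES region. Part of this is built in at short distances, since 1 wide region of the other list can keep both neighbours. At 10 to 50 kb the shares were still 42.3% and 35.4% for gain, and 53.6% and 49.6% for loss.

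**Figure D3:**
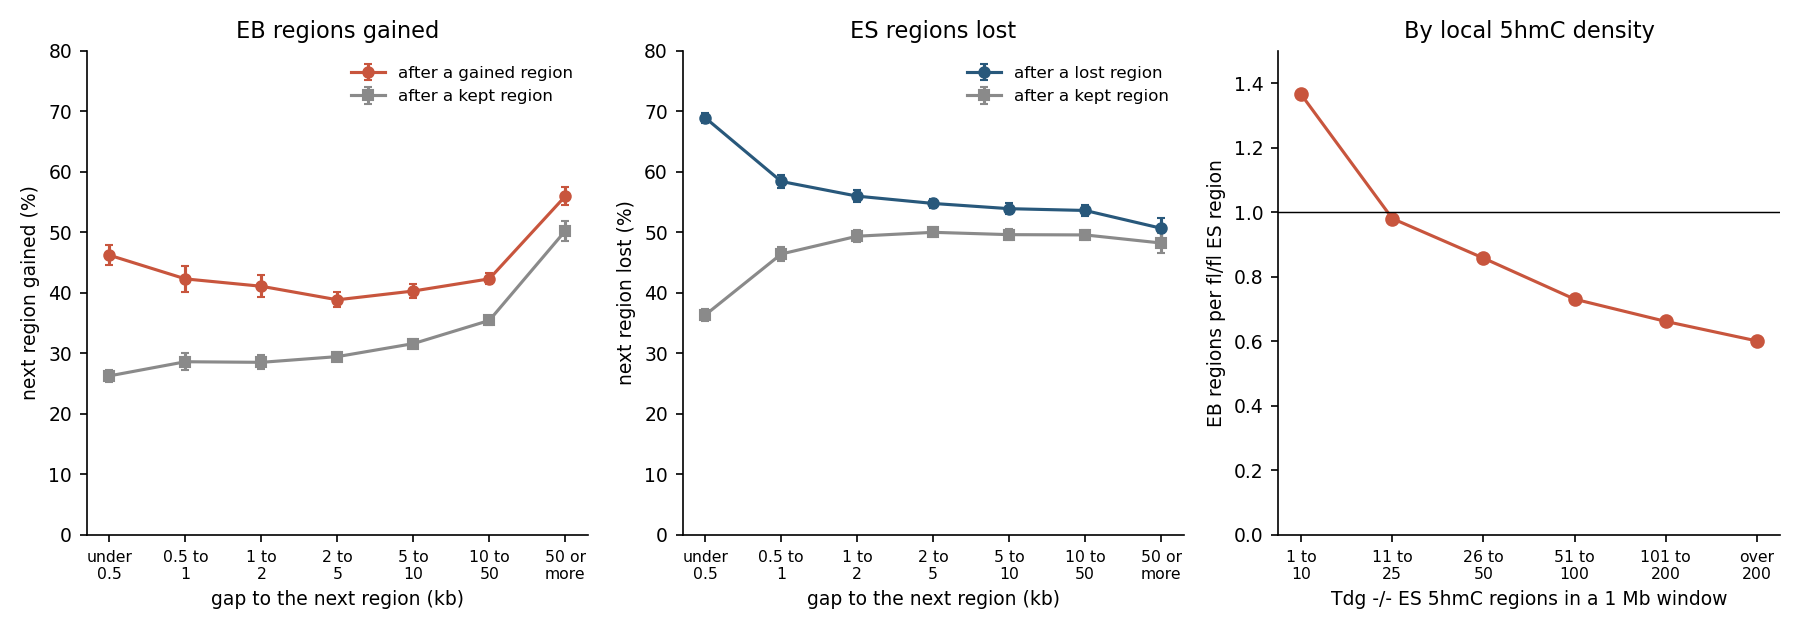
Share of regions whose next region was gained in the EB list (left) or lost in the ES list (middle), after a changed or a kept region, by the gap between them in kb, with 95% Wilson intervals. Right, number of EB regions per fl/fl ES region in 1 Mb windows grouped by their number of Tdg -/- ES regions, without chromosomes 11 and X and the first 30 Mb of chromosome 6; the ratio is 1.36 in the sparsest windows and 0.601 in the densest.

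Dense groups of regions thinned out in EB. With regions under 10 kb apart joined into clusters, the largest EB cluster held 41 regions and the largest ES cluster 326. Clusters of 21 or more regions held 3710 EB regions (3.65% of the list) but 43179 ES regions (30.6%). List size alone lowers such counts, and the ES list reduced to its 101593 highest-scoring regions still had 18318 (18.0%) in clusters of this size, the largest with 107. That reduction favours clustered regions, since the median ES score was 84.6 for single regions and 135 in clusters of 21 or more. It therefore does not fully separate list size from thinning. In the 1170 ES clusters of this size there were 23230 EB regions, 43179 fl/fl ES regions and 44919 Tdg -/- ES regions. That was 0.538 EB regions per fl/fl ES region, against 0.802 outside these clusters, and 1.04 Tdg -/- regions per fl/fl region, against 1.33 outside. Because the clusters were picked for a high number in the fl/fl ES list, both ratios are lowered there. EB had fewer regions in 1165 of the 1170.

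The thinning came with little change in the share of ES regions lost. That share was 50.6% for ES regions with no neighbour within 10 kb and 53.9% in clusters of 21 or more. The share of EB regions gained differed more, at 46.0% for EB regions with no neighbour within 10 kb and 27.9% in clusters of 21 or more.

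The 5 largest ES clusters, chosen after their values were seen, are given as examples. They were picked for their number of fl/fl ES regions, so lower EB numbers there are partly built in. The largest spanned 1092 kb on chromosome 5, from 114168361 to 115259971, and held 165 EB regions, 326 fl/fl ES regions and 328 Tdg -/- ES regions. EB regions covered 269 kb of it and fl/fl ES regions 576 kb. Of its ES regions 179 were lost, and 23 of its EB regions were gained. It held 72 EB 5fC regions and 240 fl/fl ES 5fC regions. The other 4, on chromosomes 12, 17, 2 and 4, had 64 to 88 EB regions, against 138 to 147 fl/fl ES regions, and 142 to 165 Tdg -/- ES regions.

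Consecutive changed regions, with gaps under 50 kb, formed runs. Runs of at least 5 held 3453 gained regions (9.39%) in 581 runs and 20428 lost regions (27.6%) in 3176 runs, and the lower share of EB regions gained itself gives shorter runs. The longest run of gained regions had 17 of them, from 35083776 to 35221941 on chromosome 11, in a stretch with no fl/fl ES region and 26 Tdg -/- ES regions. Runs of 13 followed on chromosome 2 (91134469 to 91280202) and on chromosome 6 (8344794 to 8463144). Of these 3 runs only that on chromosome 2 lay outside chromosome 11 and the start of chromosome 6, and 7 ES regions lay between its members. The 3 longest runs of lost regions had 21 each. They spanned 133952700 to 134058419 on chromosome 6, 21158312 to 21244422 on chromosome 9 and 32215141 to 32297655 on chromosome 19, with 3, 1 and 0 EB regions between their ends. The Tdg -/- list had 24, 23 and 18 regions in these stretches.

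Over 1 Mb windows the 5hmC landscape of EB followed that of ES cells in outline. Across the 2376 windows with a region in either list, the numbers of EB and ES regions had a Pearson correlation of 0.951, which describes the windows and reflects in part what both lists share, such as mappability and base composition. EB had fewer regions in 1481 windows and more in 741. The difference depended on density. Leaving out chromosomes 11 and X and the first 30 Mb of chromosome 6, windows with 1 to 10 ES regions held 1.36 EB regions per ES region, and windows with over 200 held 0.582. To avoid sorting by the list under comparison, windows were also sorted by their number of Tdg -/- regions. That list also comes from ES cells and shares most fl/fl ES regions, so part of the sorting effect can remain. The ratio was again 1.36 in windows with 1 to 10 regions and 0.601 in those with over 200. In this second order the share of ES regions lost was 48.6% in the sparsest windows and 52.5% to 53.8% in the denser classes, while the share of EB regions gained was 63.1% in the sparsest and 24.3% in the densest.

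Of the 1060 windows with at least 50 ES regions, a median of 52.6% of ES regions were lost. The 3 highest shares were 50 of 63 ES regions at 44000001 to 45000000 on chromosome 18 (79.4%), 104 of 136 at 97000001 to 98000000 on chromosome 6 (76.5%) and 42 of 56 at 3000001 to 4000000 on chromosome 5. In these windows EB had 23, 48 and 24 regions and Tdg -/- ES cells 54, 120 and 55. The lowest shares were 13 of 55 at 59000001 to 60000000 on chromosome 19 (23.6%) and 28.6% and 29.3% in windows on chromosome 11. Of the 913 windows with at least 50 EB regions, a median of 32.1% of EB regions were gained. The 3 highest shares were 74.1% and 71.7% at 54000001 and 22000001 on chromosome 11, and 69.6% at 28000001 on chromosome 6.

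Chromosomes 11, X and the start of 6 stood apart from the rest. On the 18 autosomes other than 11, EB had 0.639 to 0.777 regions per fl/fl ES region. On chromosome 11 EB had 7815 regions against 6596 in fl/fl ES cells, a ratio of 1.18. On X EB had 837 against 431, a ratio of 1.94. The first 30 Mb of chromosome 6 held 804 EB regions against 434 fl/fl ES regions (1.85), and the rest of that chromosome had a ratio of 0.707. Windows of 10 Mb were counted if they had at least 50 regions in the EB or the fl/fl ES list. EB had more regions than ES cells in 12 of 13 windows on chromosome 11, in 7 of 7 on X and in 3 of 3 at the start of chromosome 6. Elsewhere this held in 9 of 232 windows, which include the rest of chromosome 6. Some X windows reached 50 in the EB list only, as at 50000001 with 55 EB and 21 fl/fl ES regions, so the count on X is partly built in. The first 30 Mb of chromosome 6 were set apart after their values were seen, so the 3 of 3 there is built in as well.

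The Tdg -/- list gave a second view of these chromosomes. Tdg -/- ES cells had 14553 regions on chromosome 11, a ratio of 2.21 to fl/fl ES cells, where the other 18 autosomes had 1.15 to 1.33. Set against the Tdg -/- list, chromosome 11 of EB was no longer high: the ratio was 0.537, where the other 18 autosomes had 0.550 to 0.615. At the start of chromosome 6 Tdg -/- ES cells had 1306 regions, 3.01 per fl/fl ES region. Both stretches were low in the fl/fl ES list against EB and against Tdg -/- ES cells, 2 ratios that share that list. The fl/fl ES regions on chromosome 11 were also wider, with a median of 1244 bp, against 915 to 1022 bp on the other 18 autosomes. The cause was not tested. Gain was accordingly high there, at 53.4% of EB regions on chromosome 11 against 30.3% to 41.6% on the other 18 autosomes, and loss was low, at 43.4% against 51.5% to 55.2%. Without chromosome 11, 34.7% of EB regions were gained and 52.9% of ES regions lost.

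On X the EB list was high against both lists of ES cells. The ratio of EB to Tdg -/- ES regions was 1.21 on X, above the 0.537 to 0.615 of the autosomes. The fl/fl ES list was also low on X against the Tdg -/- list, which had 690 regions there, 1.601 per fl/fl ES region, against 1.15 to 1.33 on the 18 autosomes other than 11. The values on X that are set against fl/fl ES cells thus hold both differences. X was sparse in every list, with 5.19 regions per Mb in EB and 2.67 in fl/fl ES cells, against 41.9 in EB and 58.4 in fl/fl ES cells over the autosomes. Of the X regions in EB 69.4% (66.2 to 72.4) were gained, and of those in fl/fl ES cells 38.7% (34.3 to 43.4) were lost. Relative to the autosomes, the EB to ES ratio on X was 2.71, with a 95% interval of 2.41 to 3.04 from the counts on a log scale. The 5fC lists showed the same order at lower numbers, with 106 EB and 104 ES regions on X, a ratio of 1.02. The 5fC ratio was 0.346 to 0.498 on the 18 autosomes other than 11. On chromosome 11 it was 0.932, close to that of X, so the 5fC lists hardly separated these 2 chromosomes. The labels do not give the sex of the cells, and whether EB and ES libraries hold the same number of X chromosomes is unknown.

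**Figure D4:**
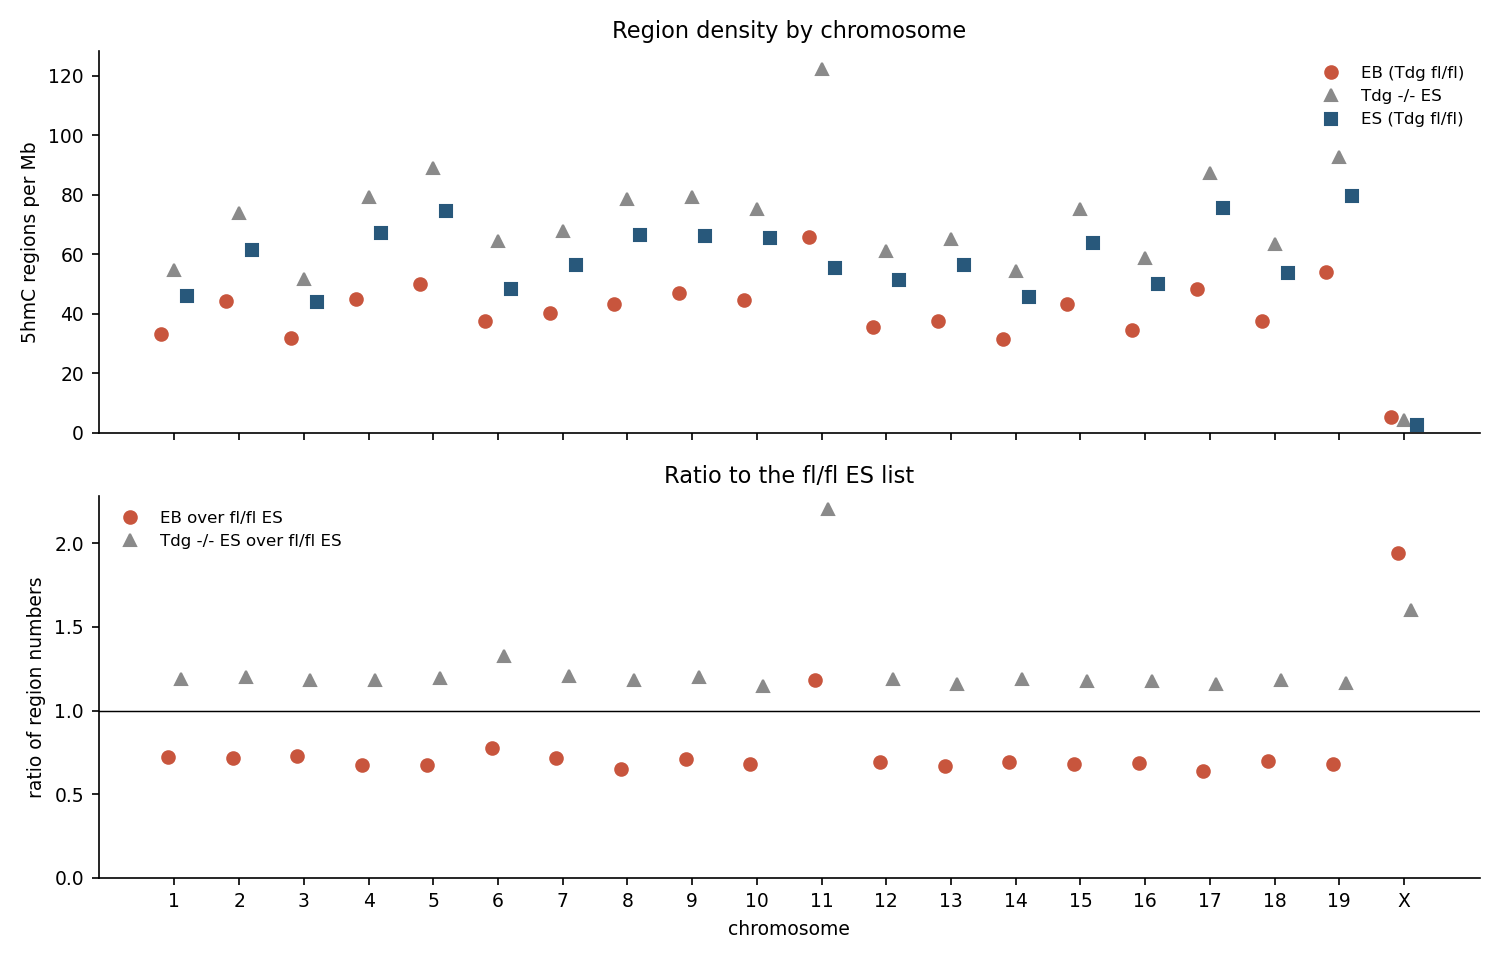
Above, 5hmC regions per Mb on each chromosome in EB, Tdg -/- ES cells and fl/fl ES cells. Below, the ratio of region numbers to the fl/fl ES list for EB and for Tdg -/- ES cells; EB lie between 0.639 and 0.777 on 18 autosomes, at 1.18 on chromosome 11 and at 1.94 on X.

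Gained regions more often lay at p300 sites of ES cells. Of the gained EB regions 14.7% (14.3 to 15.1) overlapped a p300 region of fl/fl ES cells, against 10.7% (10.5 to 10.98) of the EB regions kept from ES cells, with this order on 20 of 20 chromosomes. Kept regions are wider and so have more room to overlap, and within the widest 25% of EB regions the shares were 34.1% of gained and 19.1% of kept regions. With regions closer than 1 kb merged, the difference shrank to 1.02 points, from 3.96 points in the lists as deposited. Lost ES regions overlapped p300 in 6.58% of cases and kept ones in 9.83%, again with the same order on 20 of 20 chromosomes. In the highest-scoring 25% of the ES list the order turned, with 12.9% of lost and 11.6% of kept regions.

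Seen from p300, EB marked more of these sites than ES cells did despite the smaller list. Of the 32160 p300 regions of fl/fl ES cells, 12377 (38.5%) overlapped 5hmC in EB and 10972 (34.1%) in fl/fl ES cells. Both lists had 5hmC at 6352 of them, EB alone at 6025 (18.7%) and ES cells alone at 4620 (14.4%). Of the sites marked in EB alone, 30.2% had 5hmC in Tdg -/- ES cells. Without chromosome 11 the shares marked in EB and in fl/fl ES cells were 38.1% and 34.6%. p300 was measured in ES cells, and its binding in EB was not analysed here.

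5fC, the next oxidation product, went with keeping 5hmC. Of the gained EB regions 10.8% overlapped an EB 5fC region, against 21.8% of kept ones, and of the lost ES regions 24.8% overlapped a fl/fl ES 5fC region, against 41.2% of kept ones. Much of this goes with score, and in EB also with width, while in ES cells width goes with less of it. In the widest 25% of EB regions 35.5% of gained and 40.8% of kept regions had EB 5fC, the largest difference among the 4 width classes. In the highest-scoring 25% of ES regions 65.9% of lost and 72.4% of kept regions had ES 5fC. Within the 4 width classes of ES regions, lost minus kept was still -10.3 to -17.3 points. ES regions with 5fC in both EB and ES cells were lost in 17.9% of cases, those with 5fC in EB alone in 19.04%, those with 5fC in ES cells alone in 46.1%, and those with 5fC in neither in 61.8%. Loss is defined by the absence of EB 5hmC, from which EB 5fC is formed. The lower shares lost where EB had 5fC are therefore partly built in. The 5fC lists are not equal in stringency, since the lowest score is 50 in the EB list and 60.92 in the fl/fl ES list.

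Most lost regions were present in the second list of ES cells. Of the 73895 lost regions 80.1% (79.9 to 80.4) overlapped 5hmC of Tdg -/- ES cells, against 95.2% of the kept ones. Restricted to the 123053 ES regions found in both lists of ES cells, 48.1% were lost in EB, and of the 17890 found in fl/fl ES cells alone 82.0% were. Of the gained EB regions 47.4% overlapped Tdg -/- 5hmC, against 95.4% of the kept ones. A lower share is partly built in, since gained regions lack fl/fl ES 5hmC by definition. The 19336 EB regions found in neither list of ES cells made up 19.03% of the EB list.

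**Figure D5:**
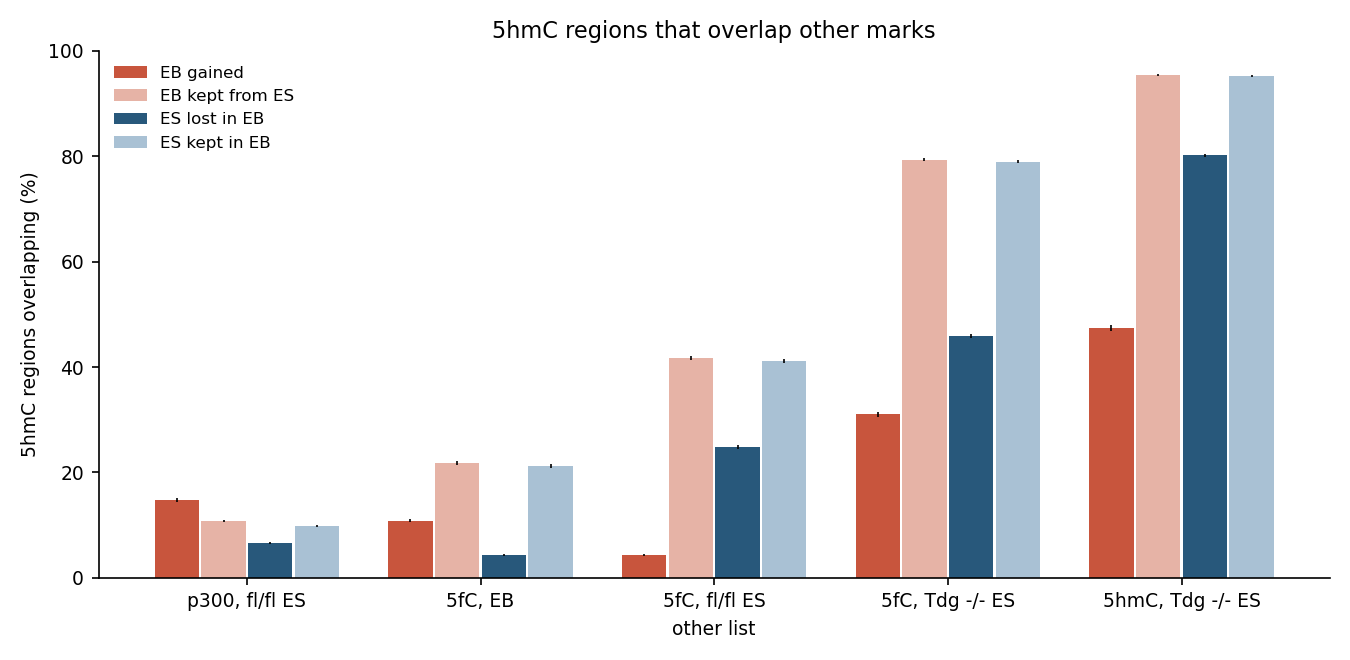
Share of gained and kept EB regions and of lost and kept ES regions that overlap p300 of fl/fl ES cells, the 3 5fC lists and 5hmC of Tdg -/- ES cells, with 95% Wilson intervals. Gained EB regions exceed kept ones for p300 (14.7% and 10.7%) and fall below them for the other 4 lists.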

How the data were processed

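The lists covered 5hmC in fl/fl EB, fl/fl ES cells and Tdg -/- ES cells, 5fC in the same groups (2 libraries a list) and p300 in fl/fl ES cells (3 libraries). They hold mm9 regions with a score deposited by the authors. Per the file headers, ES scores are -10 log10 of a p-value, and lists that lack a header were taken to use that scale. MACS 1.4, Bowtie and CASAVA 1.8.2 stand in the submitters' processing notes of both groups. Those of EB alone add a second Bowtie entry (0.12.9), Trimmomatic 0.20, Picard 1.82 and SAMtools, a difference in processing that cannot be told apart from EB against ES cells. The sources used here do not give calling thresholds or whether starts count from 0 or 1. Each 5hmC list began at a score of 50.

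Regions on chromosomes 1 to 19 and X were compared with Python 3.11.15, NumPy 2.4.6, pandas 2.3.3 and SciPy 1.17.1, in code tested on simulated data. Regions per Mb were counted over the span of all lists on a chromosome. With 1 pooled list a group, there was no test. Scores ranked regions within a list only. Alternatives changed the overlap rule, score minimum, list size, merging, neighbour distance and chromosomes. Named are the 5 lost and 5 gained regions with the highest scores. Among one-to-one pairs with both scores at or above the median, the 5 with the largest and the 5 with the smallest EB over ES width ratio are named, and the 5 with the highest EB score. Also named are the 3 longest runs of each class and the 3 windows of 1 Mb at each extreme, with at least 50 regions. Members and lists were chosen with earlier results of these data known.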

Additional observations from a re-analysis of the deposited data

How the results depend on the processing

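Each list pools its libraries, so leaving out replicates was not an option. No paired analysis was possible because each group has 1 pooled list. No value given here changed sign under the alternatives run, although p300 overlap turned within the highest-scoring class of ES regions (1.302 points, lost minus kept). The following were chosen after seeing the data: without chromosome 11, without chromosomes 11 and X and the first 30 Mb of chromosome 6, and with the Tdg -/- list. The cause of the shifts below was not tested, beyond the fewer regions that a filter or merging leaves.

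With regions at or above the median score of each list, 23704 EB regions were gained and 42952 ES regions lost, or 46.7% and 60.9%. Both lists were cut, so a region whose partner scored below the median also counted as changed. These shares therefore do not show that stronger regions changed more often. Against the full other list, 10.7% of the highest of 10 parts by score were gained and 35.0% lost. The same limit applies to every value marked higher scores that uses gained, lost or kept regions. With regions closer than 1 kb merged, 48991 were lost. With the ES list reduced to the size of the EB list, 47326 were lost and 48221 gained, numbers that equal list sizes bring close by construction. Absence from both ES lists left 19336 gained regions. Of pairs, 33.8% (higher scores), 40.8% (merged) and 32.8% (without chromosomes 11, X and the start of 6) were narrower in EB, and the median log2 ratio was 0.11 (higher scores) and 0.083 (merged).

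After a lost region, the next was lost in 64.3% (higher scores), 48.8% (merged), 58.3% (within 10 kb) and 57.5% (without 11, X and the start of 6). After a gained region, the next was gained in 51.8%, 40.7% and 41.2% under the first 3 of these, 41.4% without chromosome 11 and 40.4% without 11, X and the start of 6. The merged lists left a gap of 4.14 points between the shares lost after a lost and after a kept region, against 9.85 points as deposited. The X to autosome ratio was 3.42 (higher scores) and 3.61 (ES list reduced).

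For p300, lost minus kept was -3.25 points as deposited and -1.963 (higher scores), -5.53 (merged), -2.49 (centre of the region), -2.61 (mean over 4 width classes) and -2.27 points (mean over 4 score classes). For ES 5fC it was -16.3 as deposited and -13.2, -22.2, -14.7, -13.4 and -6.04 points in the same order. The share of lost regions in the Tdg -/- list was 97.4, 78.3, 79.3, 82.0 and 83.5% in that order, and 79.5% without chromosome 11, with or without X and the start of 6. The Tdg -/- overlap of gained minus kept EB regions was -48.0 points as deposited, -25.8 (higher scores), -42.4 (width), -44.2 (score) and -50.9 points in both sets without chromosome 11.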
